A study of Mus musculus with 8 samples.

Results

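The genes described here are 10 regulators of the growth kinase mTOR: Ddit4, the sestrins Sesn1, Sesn2 and Sesn3, Tsc1 and Tsc2, Mtor, Rptor, Rheb and Deptor. They are 10 of 30738 genes with a value on the arrays. No filter for detection was applied, so the shares of all genes given below include dim genes. Each was found in the deposited value table by its symbol in the platform annotation, taking array clusters that carry that symbol alone. Sesn3 alone had more than 1 such cluster, and there the cluster of highest overall mean was used. The list was chosen by way of Ddit4, selected on its large difference between EGF and untreated arrays, so its change is given as a description without a p-value. The list was drawn up with earlier results of these data known, though whether those results covered each of the other 9 genes is not recorded. Their p-values, adjusted over all genes, therefore describe the size of each difference against the spread between arrays, and are no independent evidence that the family responds.

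RNA came from primary mouse cultures in which radial glia, a type of neural progenitor, were differentiated into ependymal cells, which line the brain ventricles and carry motile cilia. By their titles, descriptions and treatment protocol, 4 samples received epidermal growth factor (EGF) at 20 ng/ml from the switch to differentiation medium. The 4 untreated samples had the same medium (DMEM/F12 with 2% serum) without it. The series gives 2 weeks of culture for both. The source names of the same samples conflict with the titles. They give MLN4924, a blocker of cullin ligase activation by NEDD8, for the samples titled EGF, and its solvent DMSO for those titled untreated. The conflict could not be settled, and the groups are named here by the titles. The labels used here name no strain, age or sex of the animals and no pooling. They do not say that replicates came from separate cultures, so the spread behind each p-value may be technical.

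mTOR works in 2 complexes. Complex 1, built around the scaffold raptor (Rptor), drives protein synthesis and growth from the lysosome surface, where the small GTPase Rheb switches it on. The TSC complex of Tsc1 and Tsc2 turns Rheb off. Ddit4 (also called REDD1) restrains complex 1 through the TSC complex when oxygen is short, DNA is damaged or glucocorticoids are present. Sestrins restrain it when amino acids are short, by binding GATOR2, which otherwise keeps the inhibitor GATOR1 in check, and Sesn2 senses leucine. Deptor binds mTOR itself. These are protein activities; the arrays measured RNA alone.

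On the deposited values, 9 of the 10 genes passed the test (limma, adjusted p under 0.05 over all genes), against 60.3% of all 30738 genes. Of these, 8 were higher with EGF, against 39.7% of all genes, and 1, Tsc2, was lower, against 20.7%. Rptor did not pass. The EGF and untreated arrays did not overlap for 9 of the 10 genes, against 54.0% of all genes, and 8 of these were higher with EGF, against 34.0%. A change of at least 2-fold was seen for Ddit4, Sesn2 and Sesn1, 3 of 10, against 13.7% of all genes. The median log2 fold change was 0.46 over the 10 genes and 0.17 over all genes. Nothing is read from these counts, since the list was chosen on the same comparison and most genes on the arrays passed.

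Array medians differed between the groups: over all clusters they were 4.71 to 4.82 (log2 signal) on the EGF arrays and 4.56 to 4.60 on the untreated arrays. Over the 30738 genes alone this offset was not seen: medians were 5.45 to 5.54 on the EGF arrays and 5.53 to 5.59 on the untreated arrays. The median centring below used the medians over all clusters. Further scaling brought the median fold change of all genes to 0.008 with quantile normalization, -0.020 with median centring of the arrays and -0.011 with cyclic loess. Under these 3 scalings 8, 6 and 8 of the 10 genes were called higher, against 7271, 5741 and 6326 of all 30738 genes. Called lower were 1, 1 and 1 of the 10, against 7632, 8540 and 8391 of all genes. In either direction 48.5%, 46.5% and 47.9% of all genes were called. Cell type markers differed as well. All 10 ependymal markers were lower, with a summed linear signal of 716 to 816 on the EGF arrays and 29535 to 46379 on the untreated arrays. All 10 microglial markers were lower (400 to 501, against 2918 to 6834), and so were 7 of 8 neuroblast and neuron markers (1620 to 1863, against 8862 to 12191). Of 8 astrocyte markers 6 were higher and 2 lower (151698 to 185582, against 119960 to 131446). Of 7 oligodendrocyte-lineage markers 4 were higher and 1 lower (37160 to 42443, against 19430 to 27018), and of 8 endothelial and mural markers 3 were higher and 3 lower (510 to 545, against 765 to 1608). Col1a1 alone carried that lower sum: without it the other 7 summed to 397 to 417 on the EGF arrays and 304 to 321 on the untreated arrays. Most of the oligodendrocyte-lineage sum came from Olig2 (mean log2 signal 14.96 with EGF and 14.06 untreated), while Mbp fell and Mog and Sox10 did not pass. The brightest astrocyte marker, Gfap, fell (16.10 with EGF and 16.59 untreated), against the direction of the astrocyte sum. No marker is listed at 0 on these arrays, but without detection calls this does not show that its cell type was present. Some endothelial and mural markers were dim in both groups, such as Cldn5 (mean log2 signal 3.84 with EGF and 3.32 untreated) and Kcnj8 (4.14 and 4.03). In such bulk RNA, fewer cells of a type and less RNA per cell cannot be told apart, and the part of these shifts in the changes below was not tested.

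Ddit4 showed the largest difference of the 10 genes. It read 15.06, 15.21, 15.02 and 15.04 (log2 signal) on EGF arrays 1 to 4, against 9.28, 9.87, 9.68 and 9.84 on untreated arrays 1 to 4. The groups lay 5.15 log2 units apart at their nearest arrays, while the arrays of 1 group spanned 0.19 (EGF) and 0.59 (untreated). The mean was 15.08 ± 0.09 with EGF and 9.67 ± 0.27 untreated (SD, n = 4 each), a log2 fold change of 5.42 ± 0.12 (SE), or 42.7-fold. Only 0.267% of all genes had a larger absolute change, and Ddit4 ranked 14 among all genes ordered by rise. The value was between 5.23 and 5.48 under the 18 alternatives run on these arrays. Several of these could not move it, since they change the test or the other genes and not the group means of Ddit4. The range therefore comes from the scalings, the array weights and the arrays left out.

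Ddit4l, the paralog of Ddit4 (also called REDD2) and also an inhibitor of mTOR complex 1, went the other way by a small amount. It read 7.60, 7.64, 7.55 and 7.62 on the EGF arrays, against 8.16, 7.94, 7.94 and 7.68 on the untreated arrays. The groups did not overlap, but the lowest untreated array lay only 0.04 above the highest EGF array. The log2 fold change was -0.33 ± 0.09 (limma adjusted p = 0.0131), and it was -0.52 after centring each array.

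The start regions of Ddit4, Ddit4l and Sesn2 are shown because they cover the pair of paralogs that moved in opposite directions and the sestrin with the largest rise. Each is the window from 250 bases before to 50 after the transcription start, from RefSeq on GRCm38.p6, read 5′ to 3′ on the strand of the gene. Capitals mark ACGTG or GCGTG, the core letters of the hypoxia response element, on either strand. The windows are Ddit4 at chr10:59951721-59952020 (minus strand), Ddit4l at chr3:137623422-137623721 (plus strand) and Sesn2 at chr4:132510407-132510706 (minus strand).
Ddit4: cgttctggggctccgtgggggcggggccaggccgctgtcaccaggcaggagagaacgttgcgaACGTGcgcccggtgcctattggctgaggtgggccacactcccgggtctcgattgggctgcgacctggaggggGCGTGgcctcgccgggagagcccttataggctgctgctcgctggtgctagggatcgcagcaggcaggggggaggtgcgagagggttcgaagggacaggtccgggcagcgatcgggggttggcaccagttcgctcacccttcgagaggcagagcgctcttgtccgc
Ddit4l: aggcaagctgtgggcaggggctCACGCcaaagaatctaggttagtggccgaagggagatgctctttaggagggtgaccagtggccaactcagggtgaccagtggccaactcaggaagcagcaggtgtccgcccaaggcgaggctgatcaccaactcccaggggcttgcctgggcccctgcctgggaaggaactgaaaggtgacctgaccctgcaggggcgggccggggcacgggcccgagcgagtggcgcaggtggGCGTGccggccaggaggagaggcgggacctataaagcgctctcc
Sesn2: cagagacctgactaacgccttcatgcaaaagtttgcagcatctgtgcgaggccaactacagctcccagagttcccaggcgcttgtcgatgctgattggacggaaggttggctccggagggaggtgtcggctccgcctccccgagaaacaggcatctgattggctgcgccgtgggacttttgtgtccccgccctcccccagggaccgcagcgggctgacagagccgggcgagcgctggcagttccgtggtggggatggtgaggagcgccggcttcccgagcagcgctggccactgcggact

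Relative to the transcription start, the Ddit4 window held ACGTG at -187 and GCGTG at -115. The Ddit4l window held GCGTG 2 times, at -228 on the opposite strand and at 7 on the strand of the gene. Of the 10 genes, 9 had a window in the table (10 windows, since Sesn1 has 2 starts), all but Deptor, and 6 of these 10 windows held at least 1 core, against 43.8% of 32851 windows of the same length. The 6 are those of Ddit4, Tsc1, Tsc2, Rptor, Rheb and 1 start of Sesn1. ACGTG was in 19.6% of all windows and GCGTG in 32.4%. The E-box CACGTG, which contains ACGTG, was found in the window of Rheb alone (7.15% of all windows), the forkhead letters GTAAACA in 1 window of Sesn1 (3.65%), TATAAA in that of Ddit4l (13.6%), and the CEBP-ATF letters TGATGNAA in none of them (3.97%). The windows of Sesn2, Sesn3 and Mtor held neither core. A match of letters is not a binding site, and a missing match covers this window only.

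**Figure D1:**
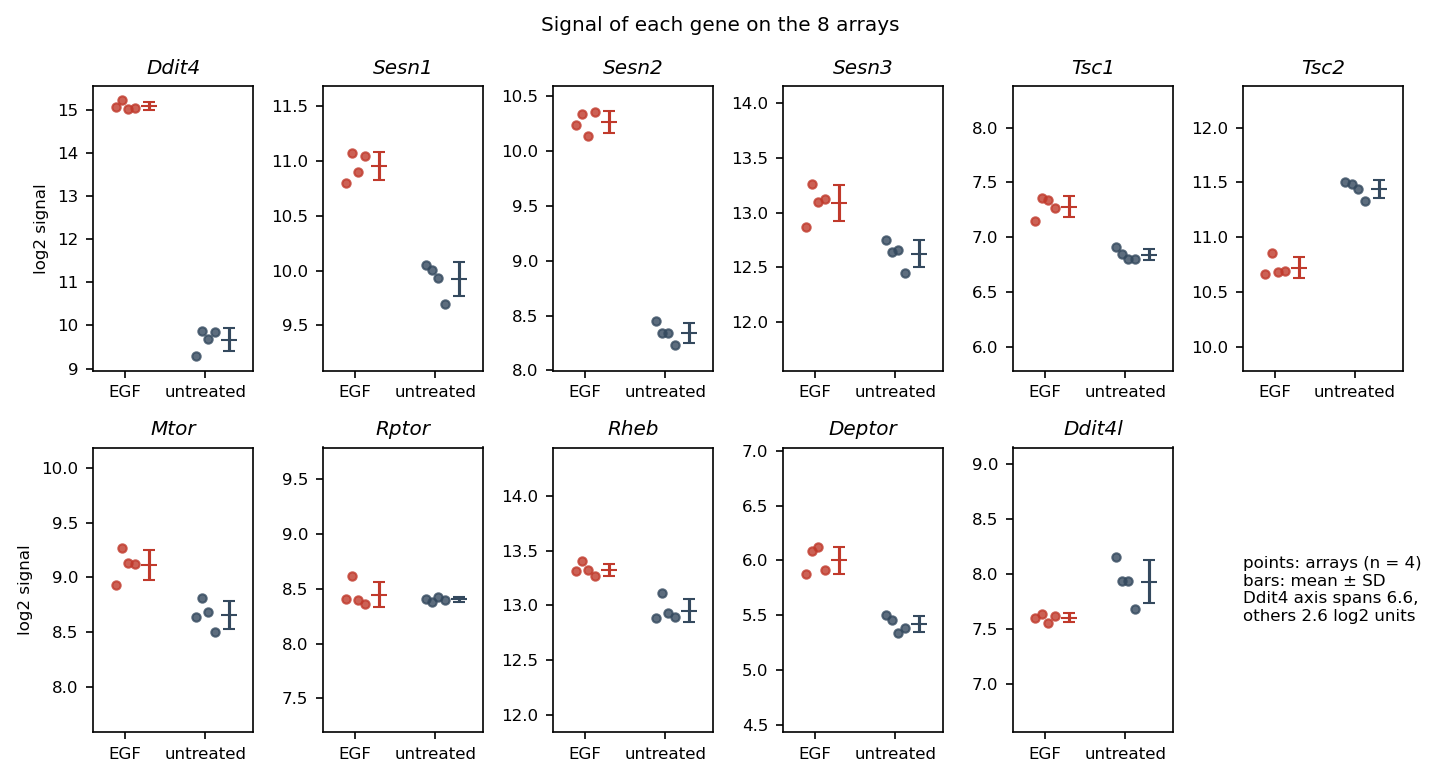
Log2 signal (y axis) of the 10 genes and of Ddit4l on the 4 EGF arrays (left in each panel) and the 4 untreated arrays (right), with mean ± SD. The Ddit4 axis spans a wider range than the others; the groups overlap for Rptor alone.

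All 3 sestrins rose, Sesn2 the most. Sesn2, the sestrin induced by nutrient and mitochondrial stress through ATF4, read 10.24, 10.34, 10.14 and 10.36 with EGF, against 8.45, 8.34, 8.34 and 8.23 untreated. The nearest arrays of the groups were 1.69 apart. The log2 fold change was 1.93 ± 0.07 (3.81-fold, limma adjusted p = 1.14e-08), between 1.74 and 1.97 under the same 18 alternatives. Here too several of them could not move the value.

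Sesn1, best known as a p53 target, read 10.80, 11.07, 10.90 and 11.05 with EGF, against 10.05, 10.01, 9.93 and 9.70 untreated. All EGF arrays were above all untreated arrays, by 0.75 at the nearest. Its log2 fold change was 1.03 ± 0.09 (2.05-fold, adjusted p = 6.33e-06), and it was 0.85 after centring each array.

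Sesn3, a target of FoxO transcription factors, read 12.87, 13.26, 13.10 and 13.12 with EGF, against 12.75, 12.64, 12.66 and 12.45 untreated. EGF array 1 lay only 0.12 above the highest untreated array. The log2 fold change was 0.46 ± 0.10 (adjusted p = 0.00214); after centring each array it was 0.28 and did not pass (adjusted p = 0.0523). A second Sesn3 cluster of lower mean gave a larger value: it read 12.67, 12.34, 12.63 and 12.75 with EGF, against 11.63, 11.46, 11.59 and 11.54 untreated, a log2 fold change of 1.04 ± 0.09. The clusters thus had the same direction and disagreed in size, and which transcripts each covers is not stated in the labels.

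Whether the sestrins differed in their response was tested on the difference between 2 of them within each array, which no shift of a whole array can move. The rise of Sesn2 exceeded that of Sesn1 by 0.90 ± 0.06 (log2, SE; 95% interval 0.75 to 1.05) and that of Sesn3 by 1.47 ± 0.08 (1.27 to 1.66). The rise of Sesn1 exceeded that of Sesn3 by 0.57 ± 0.04 (0.46 to 0.68). Two-sided exact permutation tests gave p = 0.0286 for each of the 3 pairs, and 0.0286 after adjustment over them; no smaller p is possible with 4 arrays a group. The difference between Sesn1 and Sesn3 depends on the Sesn3 cluster. It was 0.28 with the mean of both clusters (exact permutation p = 0.0286), and with the second cluster alone, an alternative chosen after seeing the data, it was -0.01 ± 0.15 (95% interval -0.38 to 0.36, exact permutation p = 0.943). With that cluster the rise of Sesn2 exceeded that of Sesn3 by 0.89 ± 0.12 (exact permutation p = 0.0286, adjusted 0.0429). These data therefore give no order between Sesn1 and Sesn3.

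The partners of the TSC complex moved in opposite directions. Tsc1, the stabilising partner, read 7.15, 7.36, 7.34 and 7.27 with EGF, against 6.91, 6.85, 6.80 and 6.80 untreated, a log2 fold change of 0.44 ± 0.07 (adjusted p = 0.000273). Tsc2, which carries the GTPase-activating activity towards Rheb, read 10.66, 10.86, 10.68 and 10.69 with EGF, against 11.50, 11.49, 11.44 and 11.33 untreated, a log2 fold change of -0.72 ± 0.07 (0.608-fold, adjusted p = 1.03e-05). Neither pair of groups overlapped. Both directions and calls held after the 3 scalings, with values of 0.25 to 0.45 for Tsc1 and -0.91 to -0.75 for Tsc2. The remaining partner, Tbc1d7, did not pass (-0.08 ± 0.09, adjusted p = 0.458).

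Rheb, the GTPase that the TSC complex switches off, read 13.31, 13.40, 13.32 and 13.27 with EGF, against 12.88, 13.11, 12.93 and 12.89 untreated. Its log2 fold change was 0.37 ± 0.07 (adjusted p = 0.00117), but after centring each array it was 0.19 and did not pass (adjusted p = 0.0828). Its relative Rhebl1 did not pass (0.17 ± 0.08, adjusted p = 0.0879).

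Of the mTOR core, the kinase gene Mtor read 8.93, 9.27, 9.13 and 9.12 with EGF, against 8.64, 8.81, 8.68 and 8.50 untreated. The log2 fold change was 0.46 ± 0.09 (adjusted p = 0.00168), and it was 0.27 after centring. EGF array 1 lay 0.12 above the highest untreated array. Rptor, the scaffold that brings substrates to complex 1, read 8.41, 8.62, 8.40 and 8.36 with EGF, against 8.41, 8.38, 8.43 and 8.40 untreated. The groups overlapped, and the log2 fold change of 0.04 had a 95% interval of -0.11 to 0.20 (adjusted p = 0.605), which bounds its change on the deposited scale. Its sign turned after centring (-0.15) and cyclic loess (-0.07).

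Deptor, an inhibitor that binds mTOR in both complexes, was the dimmest of the 10 on these arrays. It read 5.88, 6.09, 6.12 and 5.91 with EGF, against 5.50, 5.46, 5.34 and 5.38 untreated. The groups did not overlap. The log2 fold change was 0.58 ± 0.08 (adjusted p = 9.31e-05) and 0.39 after centring. Its level is near the median of all genes, 5.45 to 5.54 on the EGF arrays and 5.53 to 5.59 on the untreated arrays, where folds can be understated.

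**Figure D2:**
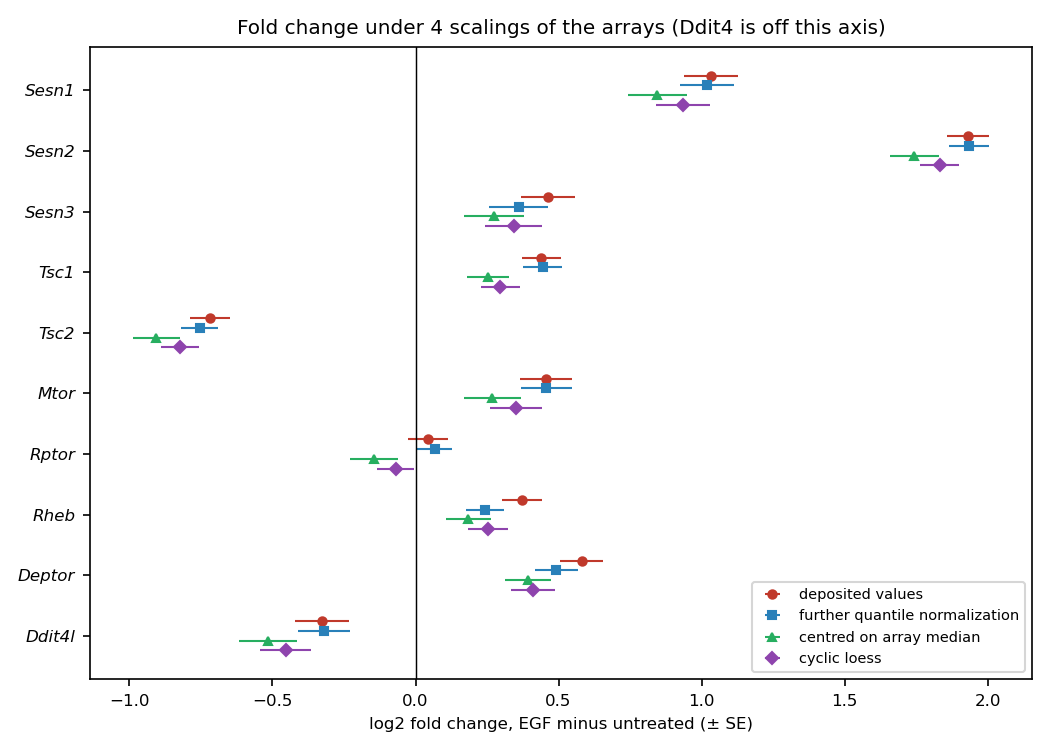
Log2 fold change, EGF minus untreated, with its SE (x axis), for 9 of the 10 genes and Ddit4l, on the deposited values and after 3 further scalings of the arrays. Sesn1, Sesn2 and Tsc2 lie well away from 0 under all 4, Rptor lies on both sides of 0, and centring moves every value down by about the same amount.

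The counts for the genes around these regulators are to be set against all genes, of which 39.7% rose and 20.7% fell on the deposited values. After centring the balance of all 30738 genes turned: 5741 rose and 8540 fell. After cyclic loess 6326 rose and 8391 fell. Of 8 further subunits and assembly factors of the mTOR complexes 3 rose, 2 fell and 3 did not pass (median 0.06, against 0.17 for all genes). Mapkap1 and Rictor, both core subunits of complex 2, moved apart, with log2 fold changes of -1.01 ± 0.08 and 0.44 ± 0.07. Mlst8, a subunit of both complexes, fell by 0.39 and the assembly factor gene Tti1 rose by 0.26. After centring or cyclic loess 1 rose and 2 fell, and the median was -0.13 and -0.09.

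GATOR1, GATOR2 and KICSTOR, the machinery on which the sestrins act, had 10 measured genes, with 4 higher, 3 lower and 3 not passing (median 0.07). The 3 largest changes were in GATOR2. Sec13 read 8.78, 8.71, 8.54 and 8.53 with EGF, against 10.33, 10.29, 10.36 and 10.29 untreated, a fall of 1.68 ± 0.07. Seh1l rose by 1.22 ± 0.10 and Wdr59 by 0.92 ± 0.08. Sec13 and Seh1l also serve in the nuclear pore, and Sec13 in vesicle coats. Nprl3, a GATOR1 subunit, fell by 0.55. After centring 2 rose and 4 fell.

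The Rag GTPases, Ragulator, folliculin and amino acid sensors had 16 measured genes, with 6 higher, 3 lower and 7 not passing (median 0.04). On the deposited values none of the 5 Ragulator genes Lamtor1 to Lamtor5 passed in limma, nor did any at an unadjusted p under 0.05. They are named after their values were seen. Castor2 fell most: it belongs to the family of the arginine sensor Castor1 and read 7.55, 7.64, 7.55 and 7.45 with EGF, against 9.38, 9.33, 9.38 and 9.23 untreated (-1.78 ± 0.07). The GTPase genes Rragb and Rragd rose by 1.23 ± 0.09 and 0.94 ± 0.07, and Bmt2, the sensor of S-adenosylmethionine, by 0.98 ± 0.08. After centring 5 rose and 7 fell, with a median of -0.15, and after cyclic loess 5 rose and 5 fell. Ragulator genes were among the falls after centring, so their lack of calls holds on the deposited scale alone.

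Among 21 genes of the PI3K, AKT and AMPK inputs there were 8 rises, 9 falls and 4 that did not pass (median 0.00). After centring 4 rose and 10 fell, and after cyclic loess 5 and 9. The largest change was of Prkab2, a beta subunit of AMPK, which read 10.34, 10.43, 10.27 and 10.30 with EGF, against 7.38, 7.23, 7.33 and 7.49 untreated (2.98 ± 0.07). Among the other AMPK subunits, Prkag2 rose by 1.46 ± 0.07. The catalytic subunits moved apart: Prkaa1 fell by 1.23 ± 0.07 and Prkaa2 rose by 0.75 ± 0.09. Prkab1, also a beta subunit, fell by 0.435 ± 0.07. Prkaa2 and Prkab1 are named after their values were seen. Pik3cb, a catalytic PI3K subunit, fell by 1.44 ± 0.10.

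Of 16 mTOR complex 1 substrates and effectors 7 rose, 3 fell and 6 did not pass (median 0.11; 5 rose and 5 fell after centring, 6 and 4 after cyclic loess). Lpin1, a phosphatidate phosphatase whose entry into the nucleus complex 1 blocks, read 12.95, 13.27, 13.08 and 13.03 with EGF, against 8.75, 8.70, 8.59 and 8.56 untreated (4.43 ± 0.08). Eif4ebp1, the translation repressor that complex 1 phosphorylates, read 11.62, 11.54, 11.50 and 11.59, against 9.57, 9.46, 9.18 and 9.40 untreated (2.16 ± 0.09). The translation factor gene Eif4b rose by 1.59 ± 0.07 and the kinase gene Eef2k by 1.40 ± 0.07.

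The 12 amino acid transporter genes had 6 rises, 5 falls and 1 that did not pass (median 0.22), and 4 rose and 5 fell after centring. Slc7a5, the carrier of leucine and other large neutral amino acids, read 13.42, 13.68, 13.73 and 13.47 with EGF, against 11.96, 11.74, 11.64 and 11.82 untreated (1.79 ± 0.10). Slc7a8, which carries similar amino acids, read 7.10, 6.74, 6.59 and 6.89, against 10.55, 10.57, 11.20 and 11.54 untreated (-4.14 ± 0.22). Slc1a4 rose by 2.57 ± 0.07 and Slc38a3 fell by 1.97 ± 0.08.

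**Figure D3:**
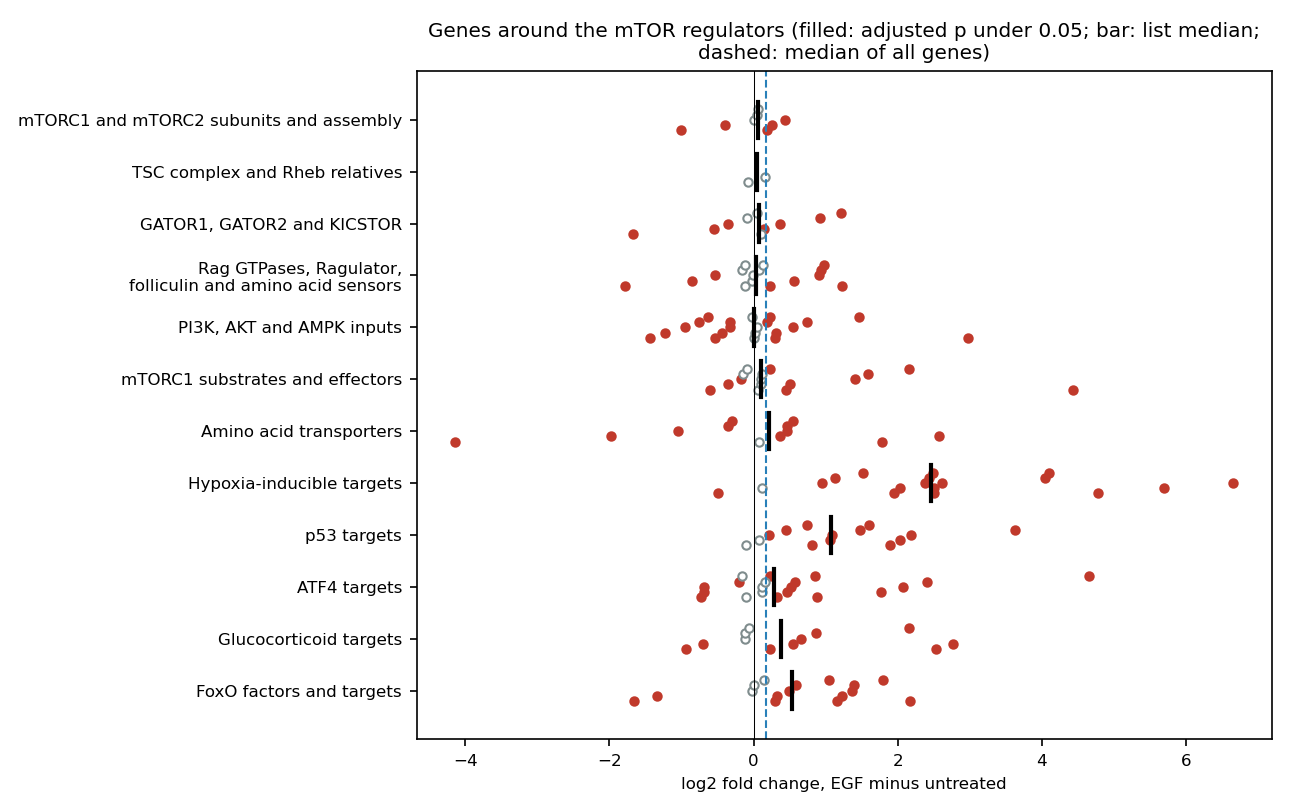
Log2 fold change, EGF minus untreated (x axis), of each measured gene in 12 lists around the mTOR regulators, filled where the adjusted p was under 0.05, with the list median as a bar and the median of all genes, 0.17, as a dashed line. The medians of the mTOR machinery lie between 0.00 and 0.22, and those of hypoxia-inducible and p53 targets at 2.47 and 1.07.

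Targets of pathways known to induce Ddit4 and the sestrins were measured beside them. These lists were chosen with earlier results of these data known, so their direction is no independent evidence. On the deposited values 60.3% of all genes passed, 39.7% higher and 20.7% lower. Counts after a scaling are to be set against those of all genes after that scaling, given above. Of 18 hypoxia-inducible targets 16 rose, 1 fell and 1 did not pass (median 2.47, and 2.28 to 2.33 after the 3 scalings). Vegfa, Ero1a, Adm and Car9 had the largest changes, at 6.65 ± 0.17, 5.69 ± 0.22, 4.78 ± 0.18 and 4.10 ± 0.15. Of 14 p53 targets besides Sesn1 and Sesn2, 12 rose, 0 fell and 2 did not pass (median 1.07), while 11 rose and 1 fell after centring and after cyclic loess. Eda2r, Cdkn1a, Trp53inp1 and Btg2 rose by 3.63, 2.19, 2.03 and 1.89. Mdm2, the p53 target that limits p53 itself, did not pass on the deposited values (-0.11 ± 0.07, limma adjusted p = 0.183). It was the only one of the 14 below 0 there, and the 1 fall after centring was that of Mdm2. It is named after its value was seen.

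ATF4, the glucocorticoid receptor and FoxO factors also induce genes of this family. Of 20 ATF4 targets 11 rose, 4 fell and 5 did not pass (median 0.28). After centring 8 rose and 6 fell (median 0.09), and after cyclic loess 9 and 6 (0.13). Vldlr, Shmt2, Aldh18a1 and Ddit3 rose by 4.66, 2.41, 2.07 and 1.77, whereas Psat1 fell by 0.73 ± 0.07. On the deposited values Chac1 (-0.16 ± 0.13, limma adjusted p = 0.282) and Mthfd2 (-0.10 ± 0.07, adjusted p = 0.232) did not pass. Both were among the 6 falls after centring. Psat1, Chac1 and Mthfd2 are named after their values were seen. Of 12 glucocorticoid targets 7 rose, 2 fell and 3 did not pass (median 0.39; 6 rose and 3 fell after quantile normalization, and 6 and 5 after centring and after cyclic loess). Per1, Pdk4 and Klf9 rose by 2.77, 2.53 and 2.16 and Sgk1 fell by 0.94. Fkbp5, an often-used reporter of glucocorticoid action and likewise named after its value was seen, did not pass on the deposited values (-0.12 ± 0.06, limma adjusted p = 0.109). Its groups did not overlap there, by 0.02 at the nearest arrays, and it was among the 5 falls after centring. Of 16 FoxO factors and targets 11 rose, 2 fell and 3 did not pass (median 0.54). Gadd45a rose by 2.17, Foxo3 by 1.80 and Ccng2 by 1.40, and Sod2 fell by 1.65.

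The genes whose profile over the 8 arrays was most like that of Ddit4, by the root mean square difference after centring each gene on its own mean, were Pde2a (0.19 log2 units), Slc2a3 (0.22) and Cbs (0.24), among 11828 genes compared. Pde2a had a mean of 13.71 ± 0.14 with EGF and 8.35 ± 0.18 untreated, Slc2a3 14.88 ± 0.07 and 9.17 ± 0.05, and Cbs 13.07 ± 0.12 and 7.79 ± 0.09 (SD, n = 4 each). Dap, Mapk8ip3 and Pfkm were most like Sesn2 (0.06, 0.07 and 0.07), Hddc3, Bckdha and Man2a2 most like Sesn1 (0.05, 0.06 and 0.06), and Tmem106b, Igsf3 and Slc15a4 most like Sesn3 (0.04, 0.05 and 0.05). With 2 groups that lie far apart, this measure reflects mainly the size of the difference between them.

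The authors' deposited table of ctrl against gf, which lists clusters with an absolute log2 difference of at least 1, gives averages for 2 of the 10 genes and of the second Sesn3 cluster. Its averages are not those of the arrays analysed here: of its 4136 clusters, the gf average of 82.1% lay outside the range of the 4 EGF arrays and the ctrl average of 83.9% outside that of the 4 untreated arrays (by more than 0.01), with median gaps to the array means of 0.67 and 0.72. The samples behind it are not named in the sources used here. Of its differences 85.0% had the sign seen on the arrays.

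In the authors' deposited table Ddit4 averaged 12.76 in gf and 9.24 in ctrl, a difference of 3.52, against 5.42 on the arrays. In the authors' deposited table Sesn2 averaged 9.21 in gf and 7.87 in ctrl, a difference of 1.34 (false discovery rate 0.00132), against 1.93 on the arrays. The second Sesn3 cluster went the opposite way: the authors' deposited table gives 11.84 in gf and 13.05 in ctrl, a difference of -1.21 (false discovery rate 0.00864), against 1.04 on the arrays. The direction of Sesn3 therefore differs between the sources, and its rise above is a statement about these 8 arrays alone. The clusters used for the other 8 genes are not in the authors' deposited table.

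**Figure D4:**
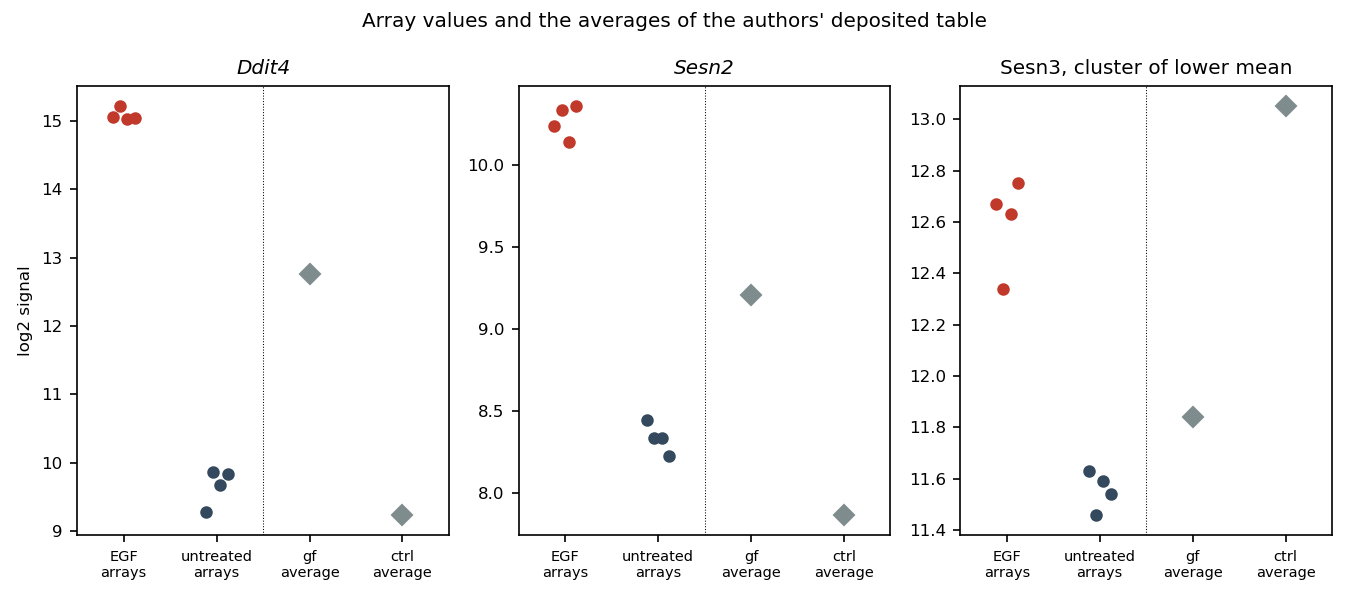
Log2 signal (y axis) of Ddit4, Sesn2 and the Sesn3 cluster of lower mean on the 4 EGF and 4 untreated arrays (points) beside the gf and ctrl averages of the authors' deposited table (diamonds). Ddit4 and Sesn2 were higher in EGF and in gf by 5.42 and 3.52 and by 1.93 and 1.34, while the Sesn3 cluster differed by 1.04 on the arrays and by -1.21 in the table.

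The surrounding genes read alike in part. The authors' deposited table lists 7 of the 18 hypoxia-inducible targets and 10 of the 14 p53 targets, all higher in gf. It lists 7 ATF4 targets, of which 1, Nupr1, had the opposite sign on the arrays (3.00 in the authors' deposited table and -0.68 on the arrays). Irs1 (-1.19 and 0.31) and Grb10 (-1.18 and 0.51) likewise had opposite signs in the authors' deposited table and on the arrays. Tbc1d7, the TSC partner that did not pass on the arrays (-0.08), differed by -1.05 in the authors' deposited table (false discovery rate 0.0732). Eif4ebp1 (2.00 and 2.16), Eif4b (1.36 and 1.59), Prkab2 (1.23 and 2.98), Lpin1 (1.09 and 4.43) and Slc7a5 (2.27 and 1.79) were higher in both, with the value of the authors' deposited table first in each pair; Nupr1, Irs1 and Grb10 are named after their values were seen. Some cell type markers conflicted by more. Ntsr2, an astrocyte marker, differed by -1.94 in the authors' deposited table and by 6.18 on the arrays. Stmn2, a neuronal marker, differed by 2.31 in the authors' deposited table and by -4.81 on the arrays. Aldoc (-1.19 and 0.52) and Lum (3.86 and -0.40) also had opposite signs in the authors' deposited table and on the arrays, and these 4 are likewise named after their values were seen. Of the astrocyte markers the authors' deposited table lists 4, with 1 higher and 3 lower in gf, and of the neuroblast and neuron markers 3, with 2 higher and 1 lower. All 9 ependymal and all 8 microglial markers listed in the authors' deposited table were lower in gf, as they were with EGF.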

How the data were processed

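The authors deposited 1 table of log2 signals of 65956 transcript clusters of a mouse array. RMA, affy and limma are named, without version or role, in the submitters' processing notes; the log2 scale was inferred from the range of values and from the second table. A further table that the authors deposited holds, per the file headers, log2 group averages, an ANOVA p-value and a false discovery rate. No genome build for the array is named in the sources used here. No detection calls or scan dates were used. Of the clusters 30638 had 1 symbol, 2176 several (654 resolved to 1 gene) and 33142 none; names were updated through RefSeq (GRCm38.p6), which gave 30738 genes. No filter or further normalization was applied.

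All genes were fitted together with limma 3.58.1 in R 4.3.3 (lmFit, eBayes, no replicate block), two-sided; p-values were adjusted over all genes (Benjamini-Hochberg) and 0.05 was the threshold. Steps were tested on simulated data. Tables used Python 3.11.15 with pandas 2.3.3. Precision is limited by having 4 arrays a group. No 2 arrays were identical. The genes and lists were chosen with earlier results of these data known. The genes named in each list are the up to 4 that passed with the greatest change in either direction. For Ddit4 and each sestrin the 3 genes of most similar profile are named, among genes with a mean of at least 6 in at least 1 group, clone and predicted names excepted. Alternatives were 3 scalings, brighter genes alone, averaging the clusters of each gene, eBayes with trend and robust, array weights, blocking on replicate number (replicate block), an adjusted p under 0.01, treat at 1.5-fold, leaving out each array, and the authors' table. Some list genes were not analysed here. The promoter table had no Deptor entry that matched, so none is shown.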

Additional observations from a re-analysis of the deposited data

Results flagged for a closer look

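Among 134 groups of 4 arrays checked (67 named genes), 5 held an array far from the other 3 of its group, judged by its gap to the nearest relative to the group's range; chance alone gives this in about 1 in 20 groups. Tsc2 read 10.86 on EGF array 2 and 10.66 to 10.69 on the other EGF arrays. That array lay nearer to the untreated level, and without it the log2 fold change of Tsc2 was -0.76, against -0.72 with all arrays. Pik3cb read 9.01 on EGF array 2, against 8.76 to 8.78 on the others. Cdkn1a read 16.44 on EGF array 3, against 16.60 to 16.63, and 14.49 on untreated array 2, against 14.34 to 14.36. Ddit3 read 9.12 on untreated array 4, against 8.86 to 8.90. All these gaps are smaller than the differences between the groups.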

How the results depend on the processing

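Under 18 alternatives on these arrays Ddit4 kept its direction, which those that change only the test could not alter. Sesn1 and Sesn2 kept their direction and also their side of the threshold. Sesn3 and Rheb lost the call after centring each array (0.28, adjusted p = 0.0523, and 0.19, adjusted p = 0.0828). Ddit4l lost it at an adjusted p under 0.01. Rptor, never called, turned to -0.15 after centring, -0.0692 after cyclic loess and -0.015 without EGF replicate 2, within a range of -0.015 to 0.0717 over the arrays left out in turn. The rise of Sesn1 over Sesn3 became -0.01 with the second Sesn3 cluster, chosen after seeing the data. Treat at 1.5-fold kept 3 of the 10 genes, 3 higher and 0 lower. It left 1 of the mTOR subunits, 3 of the GATOR and KICSTOR genes, 5 of the PI3K, AKT and AMPK inputs, 4 of the substrates and effectors, 5 amino acid transporters, 5 ATF4 targets and 4 glucocorticoid targets. Of the mTOR subunits 3 passed after centring, 3 after cyclic loess and 3 at an adjusted p under 0.01, against 5. With arrays left out in turn, 9 of the 10 genes always passed, and of Tbc1d7 and Rhebl1 0 to 1 did (1 without EGF replicate 1). The replicate numbers showed no sign of pairing the arrays: same-numbered deviations correlated at -0.084 to -0.003, and no array was most like its own number. Since this check ran over all genes, dim ones included, it cannot exclude that same-numbered arrays were paired. With a replicate block 9 of the 10 genes passed, and none of them lost its call. Why results moved was not tested. Dim clusters such as that of Deptor limit how small a change can be read, and the conflict between titles and source names limits what any difference is attributed to.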
